A study of Homo sapiens with 6 samples.

Results

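The genes described here encode the proteins of the cytosolic ribosome. They were chosen by symbol: RPL or RPS followed by digits and an optional A, X or L, together with RPLP0, RPLP1, RPLP2 and RPSA, leaving out pseudogenes, Y-linked copies and the RPS6 kinases. This gave 82 of the 36601 genes in the matrices, 50 of the large subunit and 32 of the small subunit. Their RNA was counted in single cells from fragments of retinal organoids grown from WA09 CRX-tdTomato, a human embryonic stem cell line whose reporter follows CRX, a transcription factor of photoreceptor precursors. The transplanted samples were fragments injected under the retina of normal dogs and recovered after 3 days, and the cultured samples were pieces from the same organoid batches that stayed in culture for that time. Both groups carried the same reporter line and were between day 113 and day 126 of differentiation. There were 3 independent experiments, called Sets, each with 1 transplanted and 1 cultured sample, so n = 3 per group, all from a single cell line, and the numbers of dogs and organoids behind a sample are not given in the sources used here.

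Ribosomal protein genes are among the most abundantly transcribed genes of any cell, and their products are needed in equal numbers because each ribosome holds one copy of nearly every one. Their messengers mostly begin with a short run of pyrimidines, the 5′ terminal oligopyrimidine (TOP) tract, through which mTORC1 and the RNA-binding protein LARP1 control their translation and stability. Free RPL5 and RPL11 bind MDM2 and thereby raise p53, which ties ribosome assembly to cell cycle arrest. Retinal cells differ widely in their demand for new protein, with photoreceptors rebuilding their outer segments for life.

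For some of these genes a pyrimidine run like the TOP tract can be seen in the genomic sequence where the gene starts. The windows printed run from 10 bases before to 20 bases after the RefSeq gene start (GRCh38.p14), 5′ to 3′ on the gene's own strand, and show members whose levels are given in the comparisons that follow: RPL31, RPS23 and RPL3, RPL38 and RPS29 with short and RPS4X with a long coding sequence, and RPS26 and RPS27L, whose fitted changes were negative. They were picked after their values were seen. Capitals mark a run of 5 or more C or T that begins with C, has no C or T before it and starts within 5 bases of the RefSeq start. The windows lie at chr2:101002279-101002308 (RPL31, plus strand), chr5:82278335-82278364 (RPS23, minus), chr22:39319604-39319633 (RPL3, minus), chr17:74203668-74203697 (RPL38, plus), chr14:49598691-49598720 (RPS29, minus), chrX:72277229-72277258 (RPS4X, minus), chr12:56041908-56041937 (RPS26, plus) and chr15:63157458-63157487 (RPS27L, minus).
RPL31: ccttcgcgCTCTTCCTTTCCaacttggacg
RPS23: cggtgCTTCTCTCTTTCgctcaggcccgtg
RPL3: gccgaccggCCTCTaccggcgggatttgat
RPL38: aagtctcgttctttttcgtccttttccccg
RPS29: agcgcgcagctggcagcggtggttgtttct
RPS4X: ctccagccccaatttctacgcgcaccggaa
RPS26: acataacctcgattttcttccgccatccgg
RPS27L: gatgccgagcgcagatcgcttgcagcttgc
The run was 12 bases long in RPL31 and RPS23 and 5 in RPL3, and the windows of the other 5 held none by this rule. RefSeq promoter sequences were at hand for 65 of the 82 genes, and 30 of these (46.2%) held such a run, against 3783 of all 27305 promoters (13.9%). Only the gene's own strand was read, and a start placed a few bases off hides a run, so a window without one says nothing about the messenger.

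Cells were assigned to classes by their counts of unique molecular identifiers (UMIs), each standing for 1 captured RNA molecule. Rods had at least 3 UMIs of NRL, a rod-specifying factor. Cones had at least 3 of PDE6H, a cone phosphodiesterase subunit, and more of it than of NRL. Müller glia had at least 3 of HES5, WIF1 and TTYH1 together, and amacrine cells at least 2 of TFAP2A and TFAP2B together. A cell could meet more than 1 of these rules. Kept cells numbered 7321, 690 and 4632 in transplanted samples 1 to 3, and 15336, 9744 and 1857 in cultured samples 1 to 3. The 6 libraries held between 6850189 and 108222149 UMIs, and any pair shared at most 62 cell barcodes. Class sizes ranged from 34 cells (cones of transplanted sample 2) to 4955 (Müller glia of cultured sample 1).

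The classes were not pure. Of the rods, 1176 of 2209 in transplanted sample 1 and 1592 of 3243 in cultured sample 1 also met the rule of another class. NR2E3, a rod gene not used by the rules, was at 85.4, 189 and 222 CPM (UMIs of the gene scaled to a fixed total per sample, in counts per 1000000) in transplanted rods and at 86.3, 117 and 181 CPM in cultured rods, against 28.2 to 84.6 CPM in transplanted cones and 20.3 to 39.6 CPM in cultured cones. The 11 Müller glia markers summed to 6067, 4426 and 3171 CPM in transplanted Müller glia and 5673, 5935 and 2356 CPM in cultured ones, and still reached 3505, 3106 and 1806 CPM in transplanted rods and 3378, 4212 and 1156 CPM in cultured rods. In cells that met none of the rules they summed to 6732, 1641 and 1301 CPM (transplanted) and 6813, 3341 and 1225 CPM (cultured). These sums were above those of the Müller glia in Set 1 and below them in Sets 2 and 3. In the amacrine class, 7 horizontal cell markers summed to 384, 626 and 1625 CPM (transplanted) and 380, 1058 and 2368 CPM (cultured). The 9 amacrine markers not used by the rule summed to 790, 949 and 1264 CPM (transplanted) and 1027, 1419 and 1224 CPM (cultured). Horizontal markers thus exceeded amacrine markers in both samples of Set 3. Results for amacrine cells are those of a class that may include horizontal cells. Free RNA in the droplets can carry such counts into any class, and its part was not tested. Summed shares, member medians and the short-to-long balance in rods are therefore also given for cells that met exactly 1 rule. The levels of single genes in the transplanted and cultured comparison come from the full classes. Among genes of possible host cells, 6 blood genes summed to at most 2.08 CPM in any transplanted class. Dog RNA is counted only where it aligns to human genes, so low sums do not show that host cells were absent. A list of 6 T and NK cell genes, 2 of them at 0 in all 6 samples, summed to 9.002, 20.7 and 19.9 CPM in transplanted rods and 4.77, 5.98 and 3.68 CPM in cultured rods. In the transplanted cells without a class the blood genes summed to 0.435, 69.0 and 223 CPM in Sets 1 to 3. There, 9 myeloid genes summed to 56.8, 76.8 and 49.8 CPM, against 2.64, 10.0 and 10.3 CPM in cultured cells without a class. In rods the myeloid genes summed to 2.89, 2.40 and 3.81 CPM in transplanted samples and 1.36, 2.45 and 4.25 CPM in cultured samples.

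Ribosomal protein RNA took a larger share of the UMIs in transplanted than in cultured cells, in each of the 4 classes and in each of the 3 Sets. In rods the 82 genes made up 25.6%, 20.3% and 17.2% of UMIs in transplanted samples 1 to 3, against 20.7%, 13.1% and 9.04% in cultured samples 1 to 3. In Müller glia the shares were 27.8%, 23.3% and 19.4% in transplanted samples and 21.9%, 14.7% and 10.6% in cultured samples. Cones had 25.7%, 17.0% and 18.4% in transplanted samples and 21.1%, 14.7% and 9.90% in cultured samples. Amacrine cells had 23.4%, 20.9% and 15.3% in transplanted samples and 20.03%, 12.5% and 7.44% in cultured samples. The groups overlapped in every class when the Sets were pooled, because cultured sample 1 stood above transplanted sample 3, and the order of the Sets was mostly the same in both groups.

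Averaged over the Sets, the share was 21.0% ± 4.26 in transplanted rods and 14.3% ± 5.92 in cultured rods (SD, n = 3 each), a mean log2 ratio of 0.62. The mean log2 ratio was 0.46 in cones, 0.63 in Müller glia and 0.67 in amacrine cells. Without Set 3 it was 0.25 in cones. The cells that met none of the rules did not share the pattern: their share was 22.6%, 9.68% and 9.64% in transplanted samples and 19.8%, 10.5% and 7.46% in cultured samples, so it was lower after transplantation in Set 2. No test was made of the summed share.

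**Figure D1:**
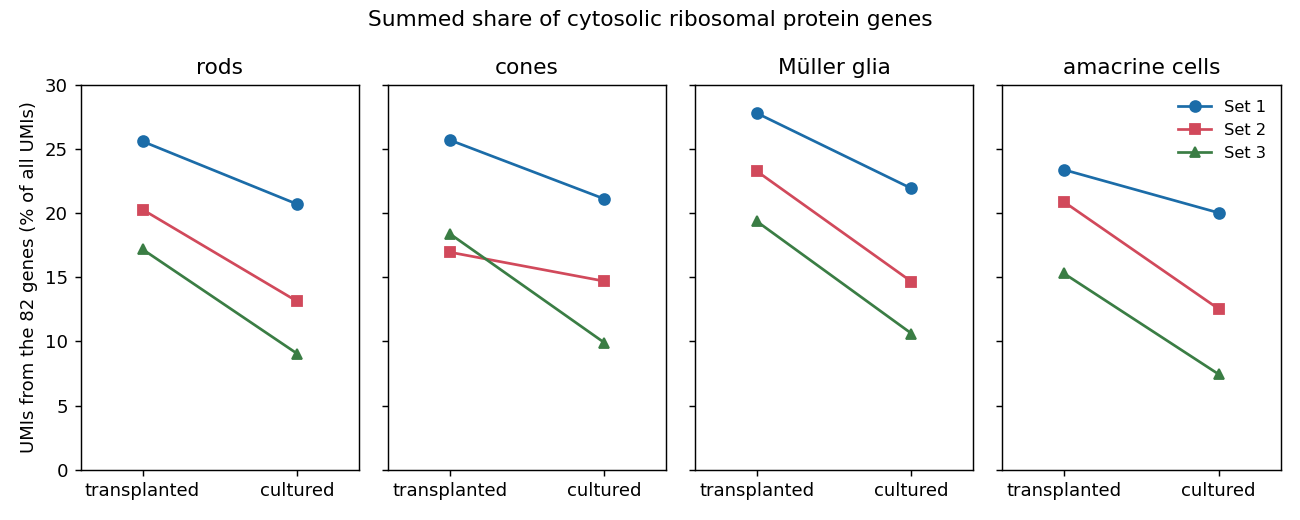
Share of all UMIs that came from the 82 ribosomal protein genes (vertical axis, percent) in transplanted and cultured samples, 1 panel per cell class, with a line joining the 2 samples of a Set. In every Set and class the transplanted sample is the higher of the pair, for example 17.2% in transplanted and 9.04% in cultured rods of Set 3.

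Depth and mitochondrial RNA differed between the groups in most pairs of samples, and their part in the share was not tested. The median depth per cell was higher in the transplanted sample in all pairs but the rods of Set 2, and the median mitochondrial share in all pairs but the Müller glia and amacrine cells of Set 2. Median UMIs per rod were 5303, 6504.5 and 7266 in transplanted samples and 3593, 7673 and 4729 in cultured samples, and mitochondrially encoded genes took a median of 4.35%, 3.39% and 3.27% of UMIs per transplanted rod and 1.70%, 2.76% and 1.16% per cultured rod. Among rods of 4000 to 8000 UMIs the ribosomal share was 24.0%, 10.4% and 13.4% in transplanted samples and 20.1%, 9.85% and 8.51% in cultured samples, a mean log2 ratio of 0.33. Summed shares give deep cells more weight. The median share per rod was 23.2%, 12.7% and 14.1% in transplanted and 19.5%, 10.0% and 7.61% in cultured samples, a mean log2 ratio of 0.49.

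In cells that met exactly 1 rule the share was 21.7%, 12.3% and 13.7% in transplanted rods and 18.8%, 9.62% and 8.11% in cultured rods. In Müller glia it was 28.5%, 17.8% and 19.6% in transplanted samples and 22.1%, 14.3% and 9.44% in cultured samples. In cones it was 23.5%, 13.4% and 14.8% in transplanted samples and 19.8%, 12.9% and 10.03% in cultured samples, and transplanted sample 2 held 13 such cones. Among amacrine cells it was 17.7%, 11.7% and 11.3% in transplanted samples and 19.3%, 8.47% and 6.32% in cultured samples. The amacrine cells of Set 1, with 18 transplanted cells, were the 1 pair of these 12 in which the transplanted sample was lower.

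Transcripts that carry a clone name in place of a gene symbol served as a rough marker of human RNA, on the premise that few of them have close matches in dog; the premise was not checked. They took 0.692%, 1.72% and 2.33% of UMIs in transplanted rods and 0.717%, 1.71% and 3.69% in cultured rods, so their share varied widely among cultures with no dog tissue. With transplanted and cultured cells of a very low clone-named share left out, the mean log2 ratio of the ribosomal share was 0.57 in rods, 0.41 in cones, 0.56 in Müller glia and 0.62 in amacrine cells. The threshold was percentile 1 of the cultured cells of the same Set. In transplanted sample 3 this left 1393 of 1545 rods, 323 of 400 cones and 238 of 375 Müller glia. In cultured sample 3 it left 391 of 393, 125 of 126 and 84 of 85. Whether the cells left out came from the host was not tested.

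Gene by gene, the differences pointed the same way in nearly all members, but no single member passed the main test. In edgeR's quasi-likelihood test with the Set as a block, 0 members were called at a Benjamini-Hochberg adjusted p of 0.05 in any class, of 81 tested in rods, cones and Müller glia and 80 in amacrine cells. Over all genes the same test called 1.72% higher and 1.59% lower in transplanted rods. For cones these shares were 0.551% higher and 0.62% lower, for Müller glia 1.68% higher and 1.88% lower, and for amacrine cells 1.26% higher and 0.887% lower. The fitted log2 change was positive for 78 members in rods, 79 in cones, 78 in Müller glia and 78 in amacrine cells. The median over the members tested was 0.85 in rods, 0.62 in cones, 0.90 in Müller glia and 0.82 in amacrine cells, against -0.02, -0.03, -0.01 and -0.01 over all genes tested in the same 4 classes. Without Set 3 the members' medians were 0.50, 0.23, 0.56 and 0.50. At an unadjusted p of 0.05, 4 members were higher in transplanted rods, where 8.8% of all genes were, 2 in cones (5.21%), 9 in Müller glia (7.86%) and 7 in amacrine cells (7.22%). The members' shares were thus below those of all genes in rods and cones and somewhat above them in Müller glia and amacrine cells. At that p 0 members were lower, against 8.67%, 6.08%, 8.11% and 7.74% of all genes in the same order of classes. On cells of exactly 1 rule edgeR again called 0 members in each class. The members' medians were then 0.59 in rods, 0.53 in cones, 0.80 in Müller glia and 0.82 in amacrine cells, from 2 Sets in cones and amacrine cells, where the smaller sums were left out.

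DESeq2 with the Set in its design called 28 of 80 members higher in transplanted rods, 1 of 81 in cones, 30 of 80 in Müller glia and 2 of 80 in amacrine cells, and 0 lower. Its background was 2.06% of all genes in rods, 0.453% in cones, 1.6% in Müller glia and 0.576% in amacrine cells. The transplanted samples all lay above the cultured samples for 10 members in rods, 11 in cones, 14 in Müller glia and 7 in amacrine cells, where 4.45%, 4.39%, 3.8% and 3.93% of all genes tested did so. RPL21, RPL23A, RPL31 and RPS16 were among those that did so in all 4 classes. No member lay below in all samples. The transplanted sample was higher in 3 of 3 Sets for 58 members in rods, 41 in cones, 58 in Müller glia and 61 in amacrine cells, against 13.1%, 13.4%, 12.5% and 13.2% of all genes tested.

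Among the large-subunit genes, RPL31, a protein at the mouth of the exit tunnel, had the smallest p in rods. Its level was 791, 785 and 683 CPM in transplanted rods and 481, 339 and 459 CPM in cultured rods. The groups did not overlap, and the log2 change was 1.001 ± 0.363 (SE) with an adjusted p of 0.156 in edgeR and of 0.00271 in DESeq2. RPL23A, which lies beside the tunnel exit where nascent chains are received, stood at 1622, 1369 and 1052 CPM in transplanted rods and 903, 826 and 498 CPM in cultured rods, again without overlap. Its log2 change was 1.05 ± 0.41 in rods, 0.86 ± 0.45 in cones, 1.02 ± 0.45 in Müller glia and 1.12 ± 0.41 in amacrine cells.

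RPL30, RPL3 and RPS23 had the largest median log2 change over the 4 classes. RPL30 was at 4689, 3320 and 2776 CPM in transplanted rods and 3341, 1574 and 882 CPM in cultured rods, and its log2 change of 1.24 ± 0.52 had an adjusted p of 0.229 in edgeR. RPL3, a core protein near the peptidyl transferase centre, was at 3814, 2682 and 2572 CPM in transplanted rods and 2539, 2665 and 375 CPM in cultured rods. The 2 samples of Set 2 were nearly equal, and the fitted log2 change of RPL3, 1.23 ± 0.64, drew mostly on cultured sample 3. RPS23, which helps decoding at the small subunit's A site, was at 5833, 4124 and 3267 CPM in transplanted rods and 4298, 2267 and 1092 CPM in cultured rods, higher in each Set with overlapping groups. RPL12 and RPS20 were among the members with the smallest positive medians. RPL12, which sits at the base of the stalk, was at 2989, 2198 and 1867 CPM in transplanted rods and 2767, 1793 and 1431 CPM in cultured rods, a log2 change of 0.43 ± 0.46.

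The P-stalk recruits translation factors to the large subunit and is built of RPLP0 with RPLP1 and RPLP2. RPLP0 was at 1343, 1356 and 1330 CPM in transplanted rods, almost the same in each, against 1099, 1604 and 484 CPM in cultured rods. Its log2 change was 0.65 ± 0.48 although the cultured sample of Set 2 was the higher one. RPLP1 was at 6149, 4618 and 3860 CPM in transplanted rods and 5708, 3070 and 2760 CPM in cultured rods. RPLP2 was at 2152, 2016 and 1725 CPM in transplanted rods and 1778, 1078 and 1370 CPM in cultured rods. RPLP1 ranked with RPL10 and RPL41 as the 3 members with the highest mean CPM in every class. CPM counts captured 3′ ends and is not divided by transcript length, and capture can differ between genes and libraries.

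RPL5 and RPL11, the MDM2-binding pair, were both higher in 3 of 3 Sets in rods. RPL5 was at 3836, 3006 and 2307 CPM in transplanted rods and 2588, 1943 and 1018 CPM in cultured rods. RPL11 was at 4772, 3526 and 2956 CPM in transplanted rods and 3927, 2439 and 1351 CPM in cultured rods. Their log2 changes were 0.96 ± 0.49 and 0.81 ± 0.51, with edgeR adjusted p-values of 0.329 and 0.445.

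In the small subunit, RPSA, which is also known as a laminin receptor, was at 1593, 1406 and 1154 CPM in transplanted rods and 1294, 1566 and 465 CPM in cultured rods. RPS19, the gene most often mutated in Diamond-Blackfan anaemia, was at 4595, 3333 and 2917 CPM in transplanted rods and 4714, 2291 and 1444 CPM in cultured rods. RPS27A, which is made as a fusion with ubiquitin, was at 3850, 2680 and 2531 CPM in transplanted rods and 3962, 1992 and 1192 CPM in cultured rods. The 3 genes overlapped between groups, with log2 changes of 0.64 ± 0.47, 0.67 ± 0.52 and 0.66 ± 0.51, and RPS19 and RPS27A differed little in Set 1.

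RPS26 and RPS27L were the members with many counts whose fitted change was negative in all 4 classes. RPS26, a protein at the messenger exit of the small subunit, was at 528, 423 and 347 CPM in transplanted rods and 1079, 339 and 740 CPM in cultured rods. It was lower in Sets 1 and 3 and higher in Set 2, and its log2 change of -0.44 ± 0.40 did not pass the test. In cones it was lower in 3 of 3 Sets, with 524, 345 and 353 CPM in transplanted cones and 1233, 388 and 750 CPM in cultured cones, a log2 change of -0.78 ± 0.41 and an edgeR adjusted p of 0.478. RPS27L, a paralog of RPS27 that is induced by p53, was at 232, 188 and 149 CPM in transplanted rods and 346, 213 and 251 CPM in cultured rods, lower in 3 of 3 Sets. RPS27 itself was at 4732, 4682 and 3545 CPM in transplanted rods and 3758, 1060 and 3597 CPM in cultured rods, and its difference came almost wholly from Set 2. RPS26 has many near-identical processed copies in the genome, so its counts depend on how reads with several matches were handled.

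The other paralogs ranged from abundant to almost absent. RPL36A was at 1596, 1346 and 962 CPM in transplanted rods and 1185, 409 and 567 CPM in cultured rods, a log2 change of 1.14 ± 0.44, and its paralog RPL36AL was at 657, 537 and 408 CPM in transplanted rods and 669, 357 and 190 CPM in cultured rods. RPL39 was at 4129, 2985 and 2822 CPM in transplanted rods and 4177, 877 and 2432 CPM in cultured rods, while RPL39L, best known from male germ cells in mice, was at 10.2, 7.41 and 6.17 CPM in transplanted rods and 11.2, 5.43 and 2.83 CPM in cultured rods. RPL10 was at 7593, 5566 and 5055 CPM in transplanted rods and 5863, 4253 and 1734 CPM in cultured rods. RPL10L, a retrotransposed copy of RPL10, had 8, 0 and 10 UMIs in transplanted rods and 0 in each of the cultured samples, too few to be tested, and reads shared with RPL10 make it uncertain. RPL3L, the muscle form of RPL3, had 6, 3 and 18 UMIs in transplanted rods and 4, 28 and 6 in cultured rods.

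**Figure D2:**
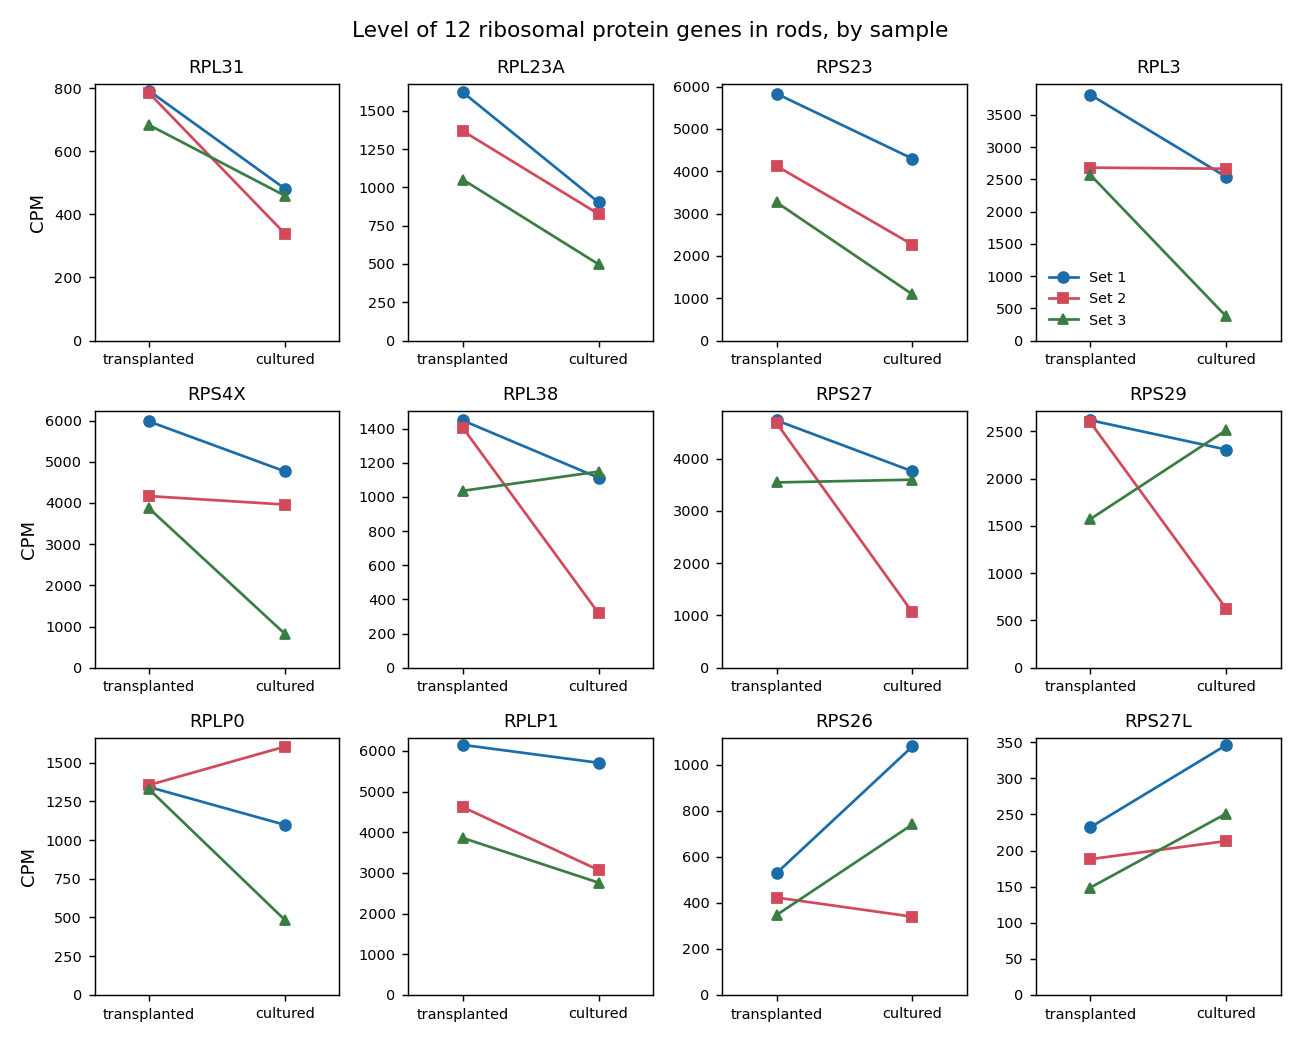
Level in CPM of 12 ribosomal protein genes in rods, with transplanted samples at the left and cultured samples at the right of each panel and a line joining the 2 samples of a Set. RPL31 and RPL23A differ in every Set, RPL3 and RPS4X mainly in Set 3, RPL38, RPS27 and RPS29 mainly in Set 2, and RPS26 and RPS27L run the other way in most Sets.

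Which members differed most depended on the Set, and followed the length of their coding sequence. In Set 2 the genes of the smallest proteins differed most, and in Set 3 those of the largest. RPL38 was at 1406 CPM in the transplanted and 319 CPM in the cultured rods of Set 2, but at 1036 CPM in transplanted and 1149 CPM in cultured rods of Set 3. RPS29, a small zinc-finger protein, was at 2596 CPM in transplanted and 626 CPM in cultured rods of Set 2, and at 1571 CPM in transplanted and 2512 CPM in cultured rods of Set 3. RPS4X did the opposite, with 4166 CPM in transplanted and 3961 CPM in cultured rods of Set 2, and 3871 CPM in transplanted and 823 CPM in cultured rods of Set 3. In Set 1 these genes differed little: RPL38 had a log2 ratio of 0.38, RPS29 of 0.18 and RPS4X of 0.33. The pattern was noticed in these data and is given as a description.

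Over the 79 members with at least 100 CPM, Spearman's correlation of coding length with the log2 ratio of transplanted over cultured CPM in rods was 0.35 in Set 1, -0.68 in Set 2 and 0.70 in Set 3, across genes that share their 2 libraries. In the other classes it was 0.33 to 0.43 in Set 1, -0.72 to -0.69 in Set 2 and 0.66 to 0.71 in Set 3. Among 1613 other genes of at least 100 CPM in rods, which differ in much besides length, it was 0.25, -0.20 and -0.31 in the 3 Sets. The 19 members with the shortest coding sequence (75 to 351 bases, RPL41 to RPL34) had a median log2 ratio of 0.17, 1.58 and 0.22 in rods of Sets 1 to 3. The 19 with the longest (624 to 1281 bases, up to RPL4) had 0.39, 0.30 and 1.54.

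**Figure D3:**
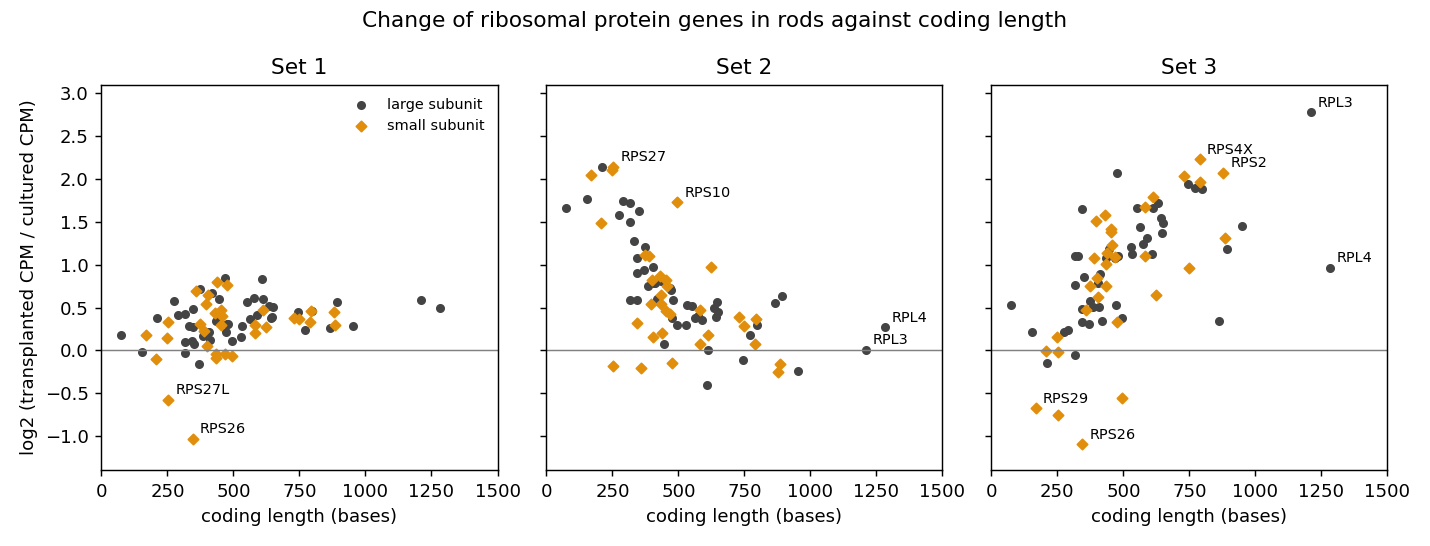
Log2 ratio of transplanted over cultured CPM in rods (vertical axis) against coding length in bases (horizontal axis), 1 panel per Set and 1 point per member with at least 100 CPM, with large-subunit genes as circles and small-subunit genes as diamonds. The points slope down in Set 2 (Spearman -0.68) and up in Set 3 (Spearman 0.70).

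The spread between Sets lay in the cultured libraries. In rods, the summed CPM of the 19 shortest over that of the 19 longest was 0.829, 0.946 and 0.844 in transplanted samples 1 to 3, and 0.964, 0.426 and 1.94 in cultured samples 1 to 3. Within a library the 4 classes gave nearly the same value: 0.829 to 0.845, 0.935 to 0.989 and 0.826 to 0.864 in transplanted samples, and 0.964 to 1.001, 0.419 to 0.433 and 1.84 to 1.99 in cultured samples. The cells without a class had 0.940, 1.03 and 0.935 in transplanted samples and 1.09, 0.483 and 1.92 in cultured samples. Restricting rods to cells of exactly 1 rule gave 0.899, 1.01 and 0.895 in transplanted samples and 1.02, 0.462 and 1.99 in cultured samples. The balance of the subunits showed no such spread: large-subunit over small-subunit UMIs in rods was 1.35, 1.44 and 1.41 in transplanted samples and 1.29, 1.39 and 1.37 in cultured samples. Whether library preparation, RNA quality or the cells themselves gave the balance of short and long messengers cannot be told apart, since each group has 1 library per Set.

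**Figure D4:**
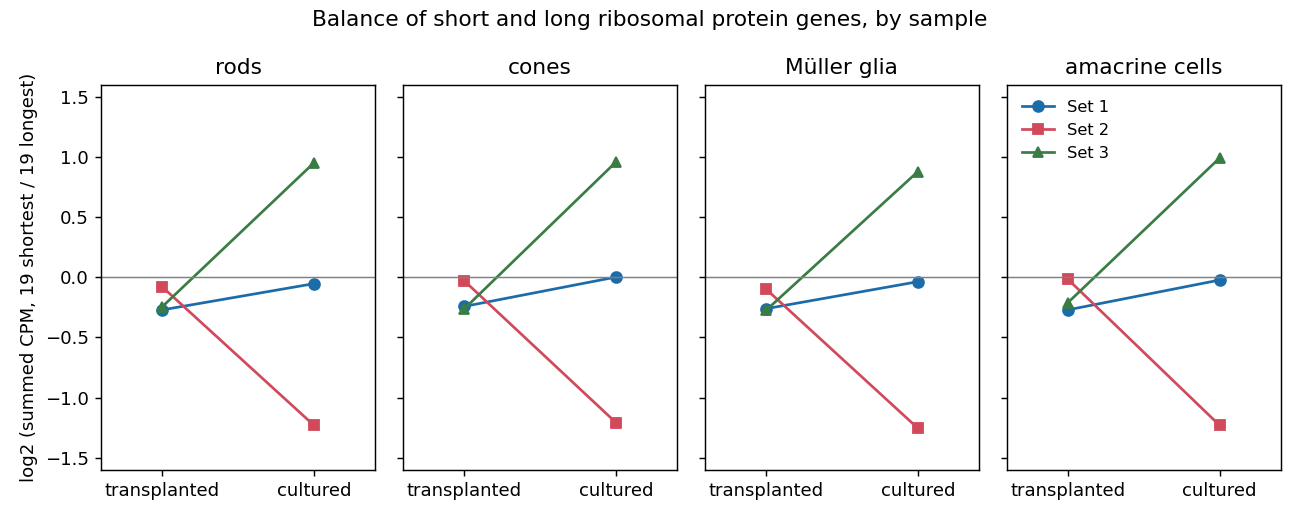
Log2 of the summed CPM of the 19 shortest over the 19 longest members (vertical axis) in transplanted and cultured samples, 1 panel per class, lines joining the samples of a Set. The transplanted samples lie close together in every class, and the cultured samples of Sets 2 and 3 lie far apart on opposite sides of zero.

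The classes were also compared with rods in how much ribosomal protein RNA they held. On cells of exactly 1 rule, in an edgeR fit with a term for each library and for class by Set, 64 of 80 members tested were higher in Müller glia than in rods, with a median log2 difference of 0.46 against -0.11 over all genes; 22.6% of all genes were called higher. RPS6, the substrate of the S6 kinases, was at 3213, 2388 and 2595 CPM in transplanted and 2368, 2186 and 1457 CPM in cultured Müller glia, against 2059, 1141 and 1378 CPM in transplanted and 1811, 1070 and 789 CPM in cultured rods. It was higher in Müller glia in all 6 libraries, by 0.87 ± 0.13 on the log2 scale (adjusted p = 1.2e-09 in edgeR). RPL36A followed with 0.83 ± 0.13 and RPS18 with 0.75 ± 0.13. RPL7, RPS13 and RPS29 were among the 16 members that did not pass, with log2 differences of 0.18, 0.14 and 0.19. Without Set 1, the count of members called in Müller glia was 42.

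In cones 3 of 80 members, RPLP0 and RPS28 among them, were called higher than in rods, a smaller share than the 5.21% of all genes. The median over the members was 0.23, against -0.02 over all genes. RPLP0 was at 1376, 1573 and 1469 CPM in transplanted and 1195, 2139 and 648 CPM in cultured cones, against 1205, 1102 and 1164 CPM in transplanted and 1010.5, 1371 and 416 CPM in cultured rods, a log2 difference of 0.42 ± 0.14 (adjusted p = 0.0410 in edgeR). It was higher in cones in each of the 5 libraries that gave cones to the fit; the transplanted cones of Set 2 were 13 cells, under the minimum of 20, and were left out of it. The cone count was 0 when any 1 of the 3 Sets was left out. In amacrine cells 11 of 80 members were called lower than in rods and 0 higher. The share called lower was smaller than the 15.7% of all genes, and the members' median was -0.16 against -0.23 over all genes. RPS27L was the lowest of the 11: its level was 91.4, 84.6 and 66.4 CPM in transplanted and 280, 85.1 and 109 CPM in cultured amacrine cells, against 221, 130 and 119 CPM in transplanted and 361, 163 and 278 CPM in cultured rods, a log2 difference of -0.86 ± 0.18. The 18 transplanted amacrine cells of Set 1 were likewise left out of the fit. RPL7 was next with -0.71 ± 0.15. The amacrine count was 4, 2 and 1 without Sets 1, 2 and 3.

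**Figure D5:**
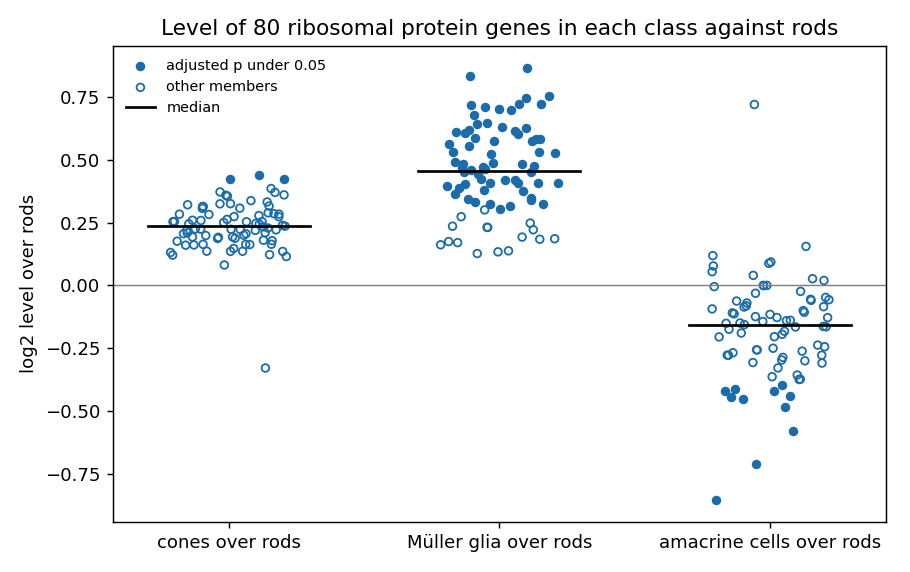
Log2 level of each of 80 members (points) in cones, Müller glia and amacrine cells over rods, from cells that met exactly 1 class rule, with filled points for an edgeR adjusted p under 0.05 and a bar at the median. Müller glia lie above rods for all 80 members. The member medians are 0.23 in cones, 0.46 in Müller glia and -0.16 in amacrine cells, against -0.02, -0.11 and -0.23 over all genes tested.

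The response to transplantation was compared between classes in the same fit, which held 22 of the 24 class sums. The response of cones rests on Sets 1 and 3 and that of amacrine cells on Sets 2 and 3, since the other pair lacked 20 transplanted cells. Against rods, 0 of 80 members differed in cones (0.0818% of all genes called) and 0 in amacrine cells (0.259%), and 1 differed in Müller glia, RPS26 (2.67%). At an unadjusted p of 0.05, 0 members differed in cones (5.6% of all genes) and 0 in amacrine cells (6.67%). In Müller glia 2 members had a higher response and 0 a lower one at that p, a share below the 11.2% of all genes. The median difference in response was -0.30 in cones, 0.15 in Müller glia and 0.01 in amacrine cells. RPS26 in cells of exactly 1 rule was at 597, 562 and 485 CPM in transplanted and 1085, 351 and 390 CPM in cultured Müller glia, against 539, 295 and 301 CPM in transplanted and 1132, 345 and 722 CPM in cultured rods. Its log2 response was 0.90 ± 0.26 higher in Müller glia than in rods (adjusted p = 0.0323 in edgeR), higher in 3 of 3 Sets, although the Müller glia themselves were lower after transplantation in Set 1 and higher in Sets 2 and 3. The call was lost when any 1 of the 3 Sets was left out.

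Most other TOP messengers and translation factors also had positive changes. Of 33 such genes, edgeR called 2 higher in transplanted rods, 0 in cones, 1 in Müller glia and 1 in amacrine cells, and 0 lower. The shares of all genes called higher were 1.72%, 0.551%, 1.68% and 1.26% in the same order. DESeq2 called 9, 2, 8 and 3 of the 33 higher and 0 lower. Of all genes it called 2.06%, 0.453%, 1.6% and 0.576% higher. The median log2 change of the 33 genes was 0.60, 0.49, 0.65 and 0.56 in these classes. In each class 31 of 33 were positive, against 48.1%, 47.3%, 49.0% and 49.1% of all genes tested. EPB41L4A-AS1, a non-coding TOP transcript, rose in rods by 1.23 ± 0.29 (adjusted p = 0.0325 in edgeR), and EIF4A2, an RNA helicase of initiation, rose by 1.28 ± 0.33 (adjusted p = 0.0493). EPB41L4A-AS1 was at 205, 214 and 158 CPM in transplanted rods, against a mean of 93.7 ± 28.5 CPM in cultured rods (SD, n = 3), with no overlap. EEF1A1, the elongation factor that brings aminoacyl-tRNA, averaged 7411 ± 1037 CPM in transplanted rods and 4300 ± 1885 CPM in cultured rods, and TPT1 averaged 3040 ± 849 CPM in transplanted rods and 1736 ± 1054 CPM in cultured rods. Their log2 changes of 1.06 ± 0.57 and 1.20 ± 0.57 did not pass in edgeR but did in DESeq2 (adjusted p = 0.0173 and 0.0368). FAU and RACK1, ribosome components whose symbols fall outside the naming rule, had log2 changes of 0.67 ± 0.46 and 1.30 ± 0.56 in rods. EdgeR called neither, and DESeq2 called RACK1 (adjusted p = 0.0230) but not FAU (0.151).

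Genes that build ribosomes had medians closer to zero. In rods, 0 of 46 ribosome biogenesis genes were called, with a median of 0.04 and 26 positive. Of all genes tested in rods, 1.72% were called higher and 1.59% lower. NOB1, an endonuclease that matures the small subunit's RNA, was the ribosome biogenesis gene called higher in Müller glia, by 0.95 ± 0.26, and in amacrine cells, by 1.33 ± 0.32. DESeq2 called it in neither class (adjusted p = 0.0659 in Müller glia and 0.196 in amacrine cells). Of 78 mitochondrial ribosome genes, 1 was called in rods (MRPL10, higher), with a median of 0.19. The 13 mitochondrially encoded genes had a median of 0.85 in rods, about the size of the ribosomal proteins' own median. EdgeR called 0 of them and DESeq2 called 5 higher, where it called 2.06% of all genes higher. Of 22 genes of mTORC1 and translational control 0 were called in rods, with a median of 0.02, and of 12 MYC-family and ribosomal protein gene regulators 0 were called. In amacrine cells DDIT4, an mTORC1 inhibitor, rose by 1.23 ± 0.28 and MYCN by 1.16 ± 0.28 in edgeR. Their adjusted p in DESeq2 was 0.0945 and 0.240, and among amacrine cells of exactly 1 rule, from Sets 2 and 3, edgeR called 0 genes and 493 had an unadjusted p under 0.05. Of 13 p53 and nucleolar stress genes, CDKN1A, the p53-induced cell cycle inhibitor, was called lower by edgeR in all 4 full classes and fell by 1.14 ± 0.20 in rods, with 21.2, 15.9 and 16.7 CPM in transplanted rods against a mean of 45.1 ± 12.1 CPM in cultured rods. BBC3, a pro-apoptotic p53 target, was called higher by edgeR in all 4 full classes and rose by 1.01 ± 0.21 in rods. DESeq2 called both in rods and Müller glia but neither in cones (adjusted p = 0.0945 for each) nor in amacrine cells (0.0945 for CDKN1A and 0.0877 for BBC3). On cells of exactly 1 rule edgeR called CDKN1A in rods (adjusted p = 0.00259) and in no other class, and BBC3 in cones (0.0170) but not in rods (0.0783), Müller glia or amacrine cells. MALAT1, a nuclear RNA, averaged 41745 ± 2887 CPM in transplanted rods and 34555 ± 9721 CPM in cultured rods, a log2 change of 0.48 ± 0.73 that did not pass.

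Markers of dividing progenitors also moved with the groups: 8 of them summed to 143, 69.7 and 85.5 CPM in transplanted rods and 721, 236 and 277 CPM in cultured rods, all 8 being detected. In Müller glia they summed to 312, 91.1 and 151 CPM in transplanted samples and 1342, 391 and 518 CPM in cultured samples. Their part in the ribosomal difference was not tested. Over the 24 class sums, the genes outside the 82 whose CPM ordered the sums most like the summed ribosomal CPM included FAU (Spearman 0.97), SMIM26 (0.97), NACA (0.95) and POLR1D (0.95), of 1653 genes of at least 100 CPM. The classes of a sample share a library, so these are descriptions.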

How the data were processed

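Libraries were made with the 10x Genomics 3′ v3.1 chemistry, per the labels' protocols. The authors deposited raw UMI counts per gene and cell barcode, not normalized, made with Cell Ranger 6.0.2 (Set 1) and 7.1.0 (Sets 2 and 3) on GRCh38, per the file headers and the submitters' processing notes. Whether introns were counted is not given in the sources used here, and both samples of a Set used the same version. Reads of the dog host that align to human genes would be counted as human.

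Cells were kept with at least 1000 UMIs, 500 genes and at most 20% mitochondrial UMIs. Scrublet's automatic threshold called 0 to 2 cells per library, so the highest scores were removed at 0.8% per 1000 cells (Scanpy 1.11.5, 30 components). Counts were summed per class and sample and tested with edgeR 4.0.16 (filterByExpr, TMM, robust quasi-likelihood fit, Set as block), adjusted over all genes tested; DESeq2 1.42.0 was an alternative. The script was tested on simulated data. With the Set as block, p-values of the transplanted and cultured comparison rest on how far the change within a Set varied between Sets. In the class comparison the class by Set term also took out how the class difference varied between Sets. Its p-values for levels over rods, with 4 residual degrees of freedom, therefore do not measure that variation. Same-Set samples deviated together in every class (correlation of deviations 0.26 to 0.91, every pair above 0.1), and the labels give the Set, so the Set pairs them. Log2 ratios of single Sets use CPM, without TMM. By library totals alone the median of all genes shifted to -0.19 in rods, -0.11 in cones, -0.21 in Müller glia and -0.15 in amacrine cells, and that of the members to 0.69, 0.57, 0.69 and 0.71. Positions and coding lengths came from GENCODE 29.

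The members, gene lists and markers were chosen with earlier results of these data known. Named members were those with set roles or paralogs, the largest and smallest changes and the highest levels; RPL31, RPL23A, RPL38, RPS29 and RPS6 were added after their values were seen. Values of some single genes are not reported here.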

Additional observations from a re-analysis of the deposited data

Results flagged for a closer look

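The response of RPS26 to transplantation differed between Müller glia and rods by 0.90 on the log2 scale (edgeR, adjusted p = 0.0323). It was 1 member of 80 that passed the threshold, a smaller share than the 2.67% of all genes that did. The response of RPS26 was higher in Müller glia than in rods in 3 of 3 Sets, on cells that met exactly 1 class rule. These included 25 transplanted Müller glia in Set 2 and 30 cultured Müller glia in Set 3, and leaving out any Set ended the call.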

How the results depend on the processing

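With the Set block left out (no replicate block), edgeR called 0 genes in rods, cones, Müller glia and amacrine cells alike, and 0 members, as with the block. DESeq2 called 28 members higher in rods, 1 in cones, 30 in Müller glia and 2 in amacrine cells, and 137 genes of all in cones and 106 in amacrine cells. Without a filter on low counts edgeR called 1146 genes in rods, 365 in cones and 1 member in Müller glia. By library totals without TMM it called 1151 genes in rods, 488 in cones and 391 in amacrine cells, and 12 members in cones over rods. With the members and mitochondrial genes left out of the totals it called 518 genes in cones. The host filter gave 1188 genes in rods, 434 in cones and 1258 in Müller glia. Cells of exactly 1 rule gave 100 in Müller glia and 0 in amacrine cells. Lower class thresholds gave 123 genes in cones, and higher ones 133 in cones and 30 in amacrine cells. Leaving out 1 Set, all genes called ranged from 158 to 534 in rods, 6 to 502 in cones, 387 to 653 in Müller glia and 38 to 726 in amacrine cells, and members called higher in Müller glia from 0 to 1. The median change of the members then ranged from 0.56 to 1.13 in Müller glia. Members called over rods ranged from 0 to 0 in cones, 42 to 64 in Müller glia and 1 to 4 in amacrine cells, and the response difference of Müller glia from 0 to 0. Without the class by Set term these were 15 in cones, 30 in amacrine cells and 0 for the Müller glia response. In Müller glia of 4000 to 8000 UMIs, a bin chosen after seeing the data that only Set 1 filled with 20 cells in both samples, the log2 ratio of the summed share was 0.35. The causes of these shifts were not tested. No alternative turned the direction of a member median or of the mean log2 ratio of a summed share. In a single Set, amacrine cells of exactly 1 rule turned it in Set 1 (17.7% transplanted, 19.3% cultured, from 18 and 95 cells), a pair under the 20-cell minimum and left out of that mean. The other 272 values stayed within 1.5 times or the spread between Sets. Transplanted sample 2, with 34 cones, 36 amacrine cells and 56 Müller glia, limits the precision in Set 2.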
